A study of Homo sapiens with 12 samples.

Results

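The Sprouty and SPRED genes encode inhibitors of growth factor signalling, and 7 of them were followed here: SPRY1, SPRY2, SPRY3 and SPRY4, which are the 4 Sprouty genes, and SPRED1, SPRED2 and SPRED3, which are the 3 SPRED genes. They were chosen by name as the human members of the family and make up 7 of the 58347 gene entries in the deposited tables. Each was found under its Ensembl identifier, and all 7 had enough counts in the 12 RNA-sequencing libraries to be tested.

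The libraries came from A375, an established human melanoma cell line that carries a mutated, permanently active BRAF kinase. Cultures were exposed for 8 h to 1 of 4 conditions, each in triplicate and each listed at 5 µM in the labels. These were DMSO (the vehicle control), tretinoin alone (all-trans retinoic acid, which acts through retinoic acid receptors), vemurafenib alone (an inhibitor of mutated BRAF) and a combination of vemurafenib and tretinoin. The labels do not say whether the combination held 5 µM of each drug. All values are from 1 cell line at 1 time point, and nothing in the labels says that the replicates were independent experiments, so p-values measure the spread between these culture dishes, which may be technical.

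Sprouty and SPRED proteins form a negative feedback loop around the RAS, RAF, MEK and ERK kinase cascade. Active ERK raises the transcription of several of these genes, and the proteins then dampen the signal. Sprouty proteins act close to the receptor, where they are phosphorylated and can bind adaptors such as GRB2 and the ubiquitin ligase CBL. SPRED proteins share the cysteine-rich Sprouty domain and add an EVH1 domain, through which they bring neurofibromin (NF1), a GTPase-activating protein that switches RAS off, to the membrane. In melanoma with mutated BRAF, the kinase signals without needing RAS, and transcripts of this family are commonly read as a gauge of ERK output.

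The genes lie on separate chromosomes. In the GENCODE 29 annotation of GRCh38, SPRY1 is at chr4:123396795-123403760 on the plus strand, SPRY2 at chr13:80335976-80340951 on the minus strand, and SPRY4 at chr5:142310427-142326455 on the minus strand. SPRED1 is at chr15:38252326-38357249 on the plus strand, SPRED2 at chr2:65310851-65432637 on the minus strand, and SPRED3 at chr19:38388421-38399587 on the plus strand. SPRY3 is at chrX:155767812-155782459 on the plus strand, in the pseudoautosomal region that both sex chromosomes share. Its exons, 9019 bases in all, are identical on both chromosomes, and the tables give the same count under both entries, so the SPRY3 value cannot be assigned to 1 copy. No other gene in the annotation shared exon bases with a member, and a BLAST search of their transcripts found no near-identical copy elsewhere (98% identity over 150 bases was the limit set). An antisense gene, SPRY4-AS1, spans part of SPRY4 but shares 0 exon bases with it. It had 6, 9 and 6 counts in the DMSO libraries, 9, 13 and 7 with tretinoin, 4, 1 and 1 with vemurafenib and 1, 2 and 7 with the combination, and it was too low to be tested.

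The 250 bases upstream of the start site are shown for 4 members, because their responses to vemurafenib differed most: SPRY4 and SPRY2 fell furthest, SPRED1 fell least and SPRY3 was higher. The sequences are from RefSeq on GRCh38.p14, at the RefSeq start nearest the GENCODE start, and are written 5′ to 3′ on the strand of the gene. Capitals mark matches, on either strand, to 3 short motifs: the ETS core CCGGAA, the cAMP response element core TGACG and the EGR1 motif GCGNGGGCG. The windows are chr5:142324248-142324497 for SPRY4, chr13:80341127-80341376 for SPRY2, chr15:38252586-38252835 for SPRED1 and chrX:155767546-155767795 for SPRY3. The SPRY4 window lies 2208 bases from the outermost GENCODE start of that gene.
SPRY4: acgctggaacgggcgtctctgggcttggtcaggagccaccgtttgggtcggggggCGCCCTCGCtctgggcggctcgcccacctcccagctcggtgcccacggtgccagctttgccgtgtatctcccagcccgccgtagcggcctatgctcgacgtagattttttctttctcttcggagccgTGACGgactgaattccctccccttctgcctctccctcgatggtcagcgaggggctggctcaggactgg
SPRY2: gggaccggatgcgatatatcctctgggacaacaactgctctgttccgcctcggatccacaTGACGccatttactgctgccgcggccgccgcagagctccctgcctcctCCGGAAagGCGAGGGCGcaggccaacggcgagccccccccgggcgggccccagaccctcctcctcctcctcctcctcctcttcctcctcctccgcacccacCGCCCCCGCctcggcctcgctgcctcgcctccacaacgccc
SPRED1: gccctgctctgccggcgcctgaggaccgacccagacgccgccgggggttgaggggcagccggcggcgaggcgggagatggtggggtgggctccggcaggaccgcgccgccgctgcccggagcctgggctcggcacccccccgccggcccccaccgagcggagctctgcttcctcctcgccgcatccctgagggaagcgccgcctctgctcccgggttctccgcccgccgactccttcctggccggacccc
SPRY3: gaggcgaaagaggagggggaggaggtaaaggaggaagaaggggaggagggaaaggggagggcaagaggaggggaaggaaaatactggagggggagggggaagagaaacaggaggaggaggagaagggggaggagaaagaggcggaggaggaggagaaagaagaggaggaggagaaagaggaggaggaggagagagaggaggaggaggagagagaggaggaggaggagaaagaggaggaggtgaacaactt

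SPRY2 and SPRY4 held both the cAMP response element core, at −190 and −68 from the start, and the EGR1 motif, at −134 and −41 in SPRY2 and at −195 in SPRY4. Of 35116 RefSeq windows of the same length, 21.2% held TGACG and 8.41% held GCGNGGGCG. The ETS core was found in SPRY2, at −142, and in 14.5% of all windows. None of these 3 motifs was found in the windows of the other 5 members. The SP1 motif GGGCGG, present in 42.6% of all windows, was found in SPRY2, SPRY4, SPRED1 and SPRED3, and 1 of its SPRY2 matches, at −42, overlaps an EGR1 match. The AP-1 motif TGANTCA, the TATA box TATAAA, the CArG box and a retinoic acid response element made of a pair of AGGTCA repeats spaced by 5 bases were also searched on both strands. No match to these was found in the 7 windows, and 6.57%, 10.7%, 1.16% and 0.00285% of all windows held them, respectively. The SPRY3 window has another make-up: 94.8% of its letters are A or G, against a median of 50% over all windows, and 0.011% of windows had as high a share. A match is a string of letters and not evidence of binding.

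Total counts per library ranged from 13510235 to 21534377, with a median of 18089760, and the ranges of the 4 groups overlapped. Tretinoin replicate 1, the library with the fewest counts, stood apart from its group. The chi-square statistic per degree of freedom between its counts and those of the other tretinoin libraries was 19.1 and 21.8, against 2.56 to 8.38 in the other 10 pairs within groups, so results that involve tretinoin alone are also given without it. Levels are given as CPM, a gene's count as a proportion of its library's TMM-adjusted total on the scale usual for RNA-seq, and levels of different genes are compared as FPKM, which divides CPM by exon length in kilobases. Changes are log2 fold changes from edgeR's quasi-likelihood test across 16740 genes, and a gene was called at a Benjamini-Hochberg adjusted p below 0.05. Melanocytic identity was only partly visible in these cells. Of 8 melanocytic markers, 4 passed the filter on low counts, SOX10 was listed at 0 in all 12 libraries and TYR in all but 1, while MITF averaged 17.6 CPM in DMSO. The summed melanocytic markers ranged from 27.9 to 32.8 CPM in DMSO, from 26.2 to 30.9 in tretinoin, from 43.9 to 46.8 in vemurafenib and from 40.2 to 42.2 in the combination. Of the 4 that passed, MITF alone was called between vemurafenib and DMSO, with a log2 fold change of 0.88. S100A1, S100B and PMEL, at 0.28, 0.02 and −0.52, were not called. In such bulk libraries, fewer cells that express a gene and less RNA per cell cannot be told apart.

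**Figure D1:**
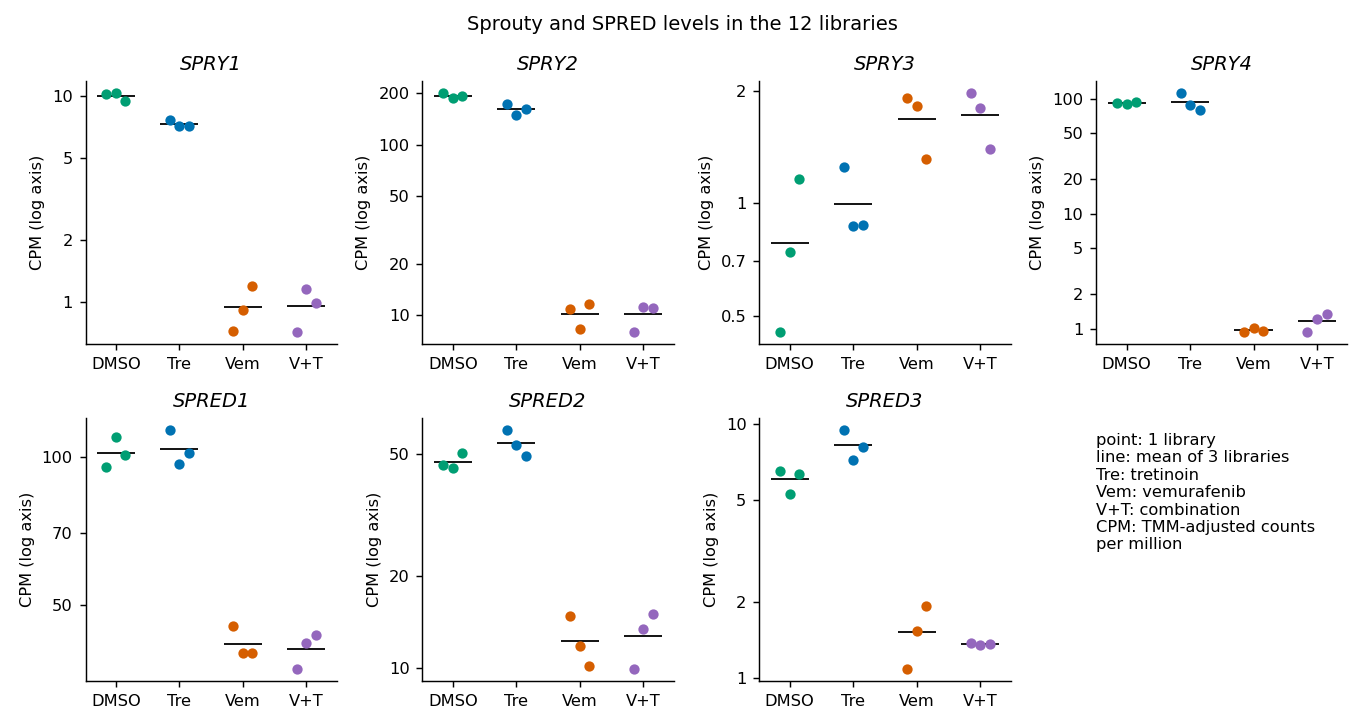
Level of each of the 7 genes in the 12 libraries, in TMM-adjusted CPM on a log axis; points are libraries and lines are means of 3. In 6 genes the vemurafenib and combination libraries lie below every DMSO and tretinoin library, and in SPRY3 they lie above them.

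In vehicle-treated cells the family was led by SPRY2. In DMSO the mean level was 63.9 FPKM for SPRY2, 14 for SPRY4, 12.4 for SPRED1 and 9.14 for SPRED2. SPRY1 followed at 2.53 FPKM, SPRED3 at 1.03 and SPRY3 at 0.087. The ranges of 3 libraries did not overlap between any neighbours in this order, the closest pair being SPRY4, at 13.6 to 14.3 FPKM, and SPRED1, at 11.6 to 13.4 FPKM. The order of this pair rests on the division by exon length, since SPRED1 averaged 102 CPM and SPRY4 91.7 CPM.

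Vemurafenib lowered 6 of the 7 genes, and the Sprouty genes other than SPRY3 fell further than the SPRED genes. SPRY3, the least expressed, rose instead. Of all tested genes, 26.3% were called lower and 26.4% higher in the same comparison. With library totals alone as the scaling, the split of called genes was 2628 lower and 6575 higher, and the 7 genes kept their direction and their calls.

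SPRY4, a Sprouty that inhibits receptor-driven RAS activation, had 92, 89.3 and 93.7 CPM in the DMSO libraries and 0.935, 1.01 and 0.961 CPM in the vemurafenib libraries. The groups were far apart, and what was left of SPRY4 rested on 18, 21 and 16 counts. The log2 fold change was −6.55 ± 0.16 (SE; 95% interval −6.88 to −6.22; edgeR adjusted p = 2.29e-15), a 93.8-fold lower level. By log2 fold change it was number 3 from the bottom of the 16740 tested genes.

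SPRY2, the member best known for binding CBL and GRB2, had 201, 188 and 194 CPM in DMSO and 10.8, 8.23 and 11.6 CPM in vemurafenib. The groups did not overlap, and SPRY2 kept 5.26% of its DMSO mean. Its log2 fold change was −4.26 ± 0.12 (SE; 95% interval −4.51 to −4.00; edgeR adjusted p = 1.76e-14), number 16 from the bottom of all tested genes. SPRY1, a Sprouty expressed at a lower level here, had 10.2, 10.3 and 9.45 CPM in DMSO and 0.727, 0.914 and 1.2 CPM in vemurafenib. Every vemurafenib library was far below every DMSO library, on 14 to 20 counts. The log2 fold change of SPRY1 was −3.41 ± 0.18 (SE; 95% interval −3.79 to −3.02; edgeR adjusted p = 8.47e-11).

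The SPRED genes fell as well, by less. SPRED1, the family member whose loss causes Legius syndrome, had 95.7, 110 and 101 CPM in DMSO and 45.1, 39.7 and 39.8 CPM in vemurafenib. It kept the largest share of its level among the genes that fell, 40.5% of the DMSO mean, with no overlap between groups. Its log2 fold change was −1.30 ± 0.085 (SE; 95% interval −1.48 to −1.12; edgeR adjusted p = 1.11e-09).

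SPRED2, a close paralog that also binds neurofibromin, had 45.9, 44.9 and 50.5 CPM in DMSO and 14.8, 11.8 and 10.2 CPM in vemurafenib, again without overlap. The log2 fold change of SPRED2 was −1.94 ± 0.14 (SE; edgeR adjusted p = 2.58e-09). SPRED3, the least expressed SPRED here, had 6.51, 5.27 and 6.33 CPM in DMSO and 1.09, 1.54 and 1.92 CPM in vemurafenib. Its groups were also separate, and the log2 fold change was −2.0 ± 0.20 (SE; edgeR adjusted p = 1.61e-07). The 95% intervals of SPRED2, −2.22 to −1.65, and SPRED3, −2.41 to −1.59, overlapped, while that of SPRED1 lay above both and that of SPRY1 below both.

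SPRY3, a little-studied Sprouty, differed from the rest in direction and in depth. It had 0.451, 0.743 and 1.16 CPM in DMSO, from 7, 11 and 22 counts, and 1.92, 1.83 and 1.32 CPM in vemurafenib, from 37, 38 and 22 counts. The ranges did not overlap, but the highest DMSO library and the lowest vemurafenib library were close and held the same number of counts. The log2 fold change was 1.07 ± 0.32 (SE; 95% interval 0.40 to 1.75; edgeR adjusted p = 0.00915), a 2.11-fold higher level. Leaving out 1 DMSO or vemurafenib library at a time gave 0.80 to 1.5, with adjusted p of at most 0.0485. With a filter of at least 10 counts in every library SPRY3 was not tested.

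In the combination of both drugs the same 6 genes were lower than in DMSO and SPRY3 was higher, where 26.5% of all tested genes were called lower and 27.1% higher (2916 and 6242 genes with library totals alone). This comparison and the previous one share the DMSO libraries. SPRY4 had 0.935, 1.21 and 1.36 CPM in the combination, a log2 fold change of −6.27 ± 0.15 (SE; edgeR adjusted p = 1.46e-15), number 2 from the bottom of all tested genes. SPRY2 had 7.92, 11.2 and 11 CPM and a log2 fold change of −4.26 ± 0.12 (SE; edgeR adjusted p = 1.44e-14). SPRY1 had 0.715, 1.16 and 0.996 CPM and a log2 fold change of −3.36 ± 0.18 (SE; edgeR adjusted p = 6.51e-11). All 3 stood at about the level seen with vemurafenib alone.

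The SPRED genes in the combination were likewise near their vemurafenib levels. SPRED1 had 36.9, 41.7 and 43.3 CPM, and SPRED2 had 9.96, 13.4 and 15 CPM. SPRED3 had 1.38, 1.35 and 1.36 CPM. Their log2 fold changes against DMSO were −1.33, −1.87 and −2.15, with edgeR adjusted p of 7.25e-10, 3.01e-09 and 6.41e-08. SPRY3 had 1.98, 1.81 and 1.4 CPM in the combination and a log2 fold change of 1.09 ± 0.32 (SE; edgeR adjusted p = 0.00754).

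**Figure D2:**
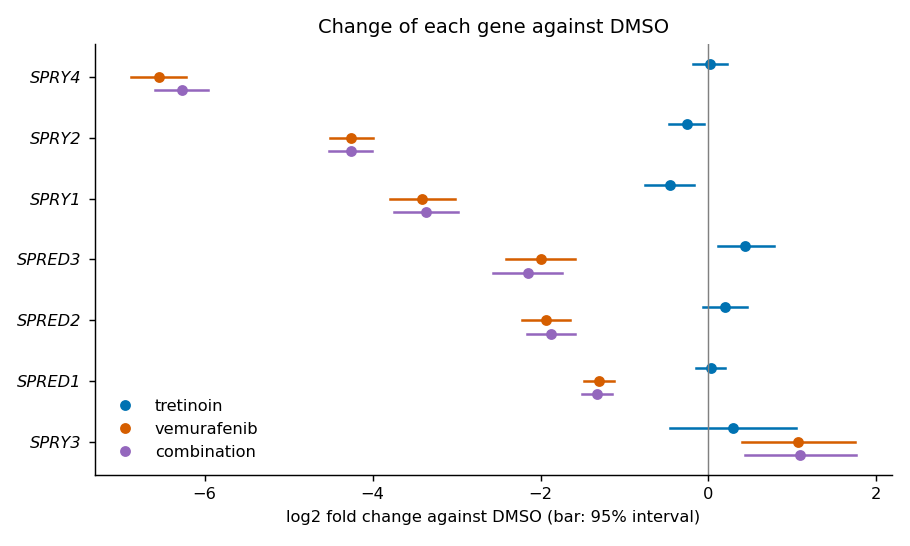
Log2 fold change of each gene against DMSO for tretinoin, vemurafenib and the combination; points are edgeR estimates and bars are 95% intervals. The vemurafenib and combination points lie next to each other for every gene, from −6.55 for SPRY4 to 1.09 for SPRY3, and the tretinoin points lie between −0.46 and 0.44.

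Tretinoin alone moved no member past the threshold. By edgeR 0 of 7 were called, where 2.20% of all tested genes were called lower and 3.48% higher (174 and 758 genes with library totals alone), and 3 of 7 had an unadjusted p below 0.05. The share of all tested genes below that unadjusted p is not given here. DESeq2 called 1, SPRY1, with an adjusted p of 0.0484, the lowest of 14 alternatives, which reached 0.2.

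Without tretinoin replicate 1, edgeR called 1 member, SPRY2, lower, and the log2 fold changes of SPRY1 and SPRED3 were −0.49 and 0.34 (adjusted p = 0.0664 and 0.281).

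These 3 genes, SPRY1, SPRY2 and SPRED3, were also the members whose DMSO and tretinoin libraries did not overlap. The share of all tested genes that separated in this way is not given here, so this count cannot be weighed against it. SPRY1 had 7.62, 7.09 and 7.12 CPM with tretinoin, all below its DMSO libraries, and a log2 fold change of −0.46 ± 0.14 (SE; edgeR adjusted p = 0.061). SPRY2 had 174, 150 and 162 CPM, also all below DMSO, and a log2 fold change of −0.26 ± 0.10 (SE; edgeR adjusted p = 0.126). SPRED3 had 9.46, 7.21 and 8.11 CPM, all above DMSO, and a log2 fold change of 0.44 ± 0.16 (SE; edgeR adjusted p = 0.109). SPRY2 passed the threshold without tretinoin replicate 1 and with no filter on low counts (adjusted p = 0.0302 and 0.0417, against up to 0.287 in the other alternatives).

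The other 4 members overlapped between DMSO and tretinoin. SPRY4 had 112, 87.9 and 80.2 CPM with tretinoin and a log2 fold change of 0.02 (95% interval −0.18 to 0.22). SPRED1 had 114, 97.2 and 102 CPM and a log2 fold change of 0.03 (95% interval −0.15 to 0.20). SPRED2 had 60, 53.6 and 49.1 CPM and a log2 fold change of 0.20 (95% interval −0.06 to 0.46). SPRY3 had 1.25, 0.872 and 0.876 CPM, on 15 to 17 counts, and its interval was wide, −0.46 to 1.04. In every member, SPRY1, SPRY2 and SPRED3 included, the highest of the tretinoin libraries was replicate 1. Without it the log2 fold changes of SPRY4, SPRED1, SPRED2 and SPRY3 were −0.13, −0.04, 0.12 and 0.12, none of them called. Of 8 listed retinoid target genes, 5 rose with tretinoin and 0 fell. The retinol-metabolising enzyme gene DHRS3 rose by 2.91, the retinol transporter gene STRA6 by 1.34 and the retinoic acid binding protein gene CRABP2 by 0.88 on the log2 scale.

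Adding tretinoin to vemurafenib gave no called change in any member. By edgeR 0 of 7 members were called between the combination and vemurafenib, where 2.20% of all tested genes were called lower and 2.27% higher, 0 members had an unadjusted p below 0.05, and DESeq2 also called 0. The intervals show what could have been missed. They were narrow for SPRED1, −0.21 to 0.15 around −0.03, and for SPRY2, −0.29 to 0.28 around −0.005. They were wider for SPRED2, −0.24 to 0.37, and for SPRED3, −0.64 to 0.36. SPRY4, at 0.28, had an interval of −0.30 to 0.86, and SPRY1 and SPRY3, at 0.05 and 0.02, had intervals of −0.49 to 0.58 and −0.56 to 0.60.

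Whether the tretinoin effect differed with and without vemurafenib was tested by the interaction of both drugs. By edgeR and by DESeq2 0 of 7 members were called, 0 had an unadjusted p below 0.05 by edgeR, and 0.424% of all tested genes were called below and 0.382% above additivity. The interaction was furthest from 0 for SPRED3, at −0.59 (95% interval −1.19 to 0.02), and for SPRY1, at 0.51 (−0.11 to 1.12). Without tretinoin replicate 1 these were −0.48 and 0.54, and again 0 of 7 members were called, while the calls over all genes were 144 below and 121 above additivity.

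**Figure D3:**
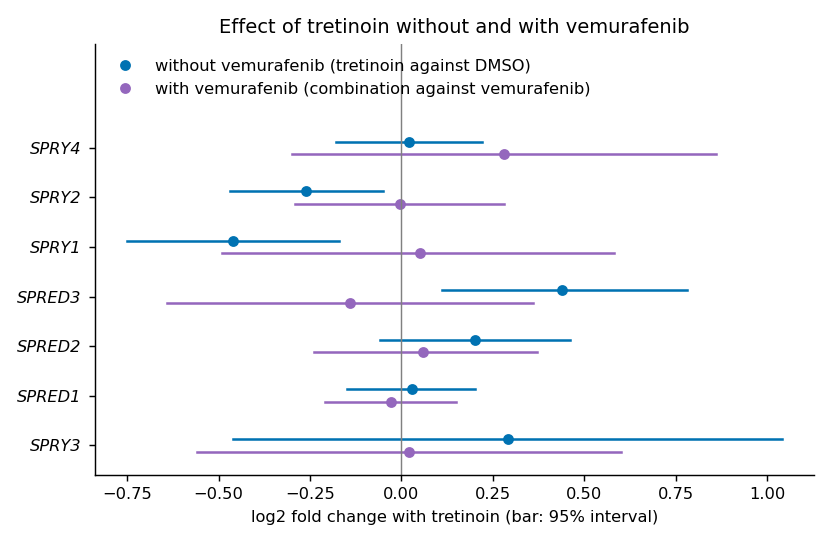
Log2 fold change with tretinoin for each gene, without vemurafenib (tretinoin against DMSO) and with it (combination against vemurafenib); bars are 95% intervals. All intervals with vemurafenib include 0, and those of SPRY1, SPRY2 and SPRED3 without vemurafenib do not, although none of these passed the adjusted threshold.

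Set against tretinoin alone, the combination again had 6 members lower and SPRY3 higher, where 25.0% of all tested genes were called lower and 24.1% higher (3271 and 5051 genes with library totals alone). The log2 fold changes were −6.30 for SPRY4, −4.00 for SPRY2, −2.90 for SPRY1, −2.59 for SPRED3, −2.07 for SPRED2 and −1.36 for SPRED1, with edgeR adjusted p of at most 4.32e-09. The libraries of these groups did not overlap for any member. Without tretinoin replicate 1 the calls were again 6 lower and 1 higher. SPRY3 was 0.81 ± 0.31 higher on the log2 scale (SE; edgeR adjusted p = 0.0372). That call was lost with the replicate number as a block (adjusted p = 0.0554) and without tretinoin replicate 2 or 3 or combination replicate 1 or 2 (log2 fold change 0.70 to 0.76, adjusted p up to 0.111), and over all alternatives the adjusted p ranged from 0.0235 to 0.111.

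Because the members fell by different amounts, the make-up of the family changed. The summed level of the 7 genes was 103 ± 1.8 FPKM in DMSO, 94 ± 8.22 in tretinoin, 11.6 ± 0.979 in vemurafenib and 11.6 ± 1.54 in the combination (SD, n = 3). Vemurafenib libraries thus held 11.3% of the DMSO sum and combination libraries 11.2%. SPRY2 made up 62% ± 1.15 of the sum in DMSO and 28.9% ± 3.88 in vemurafenib (SD, n = 3). SPRED1 went the other way, from 12% ± 1.08 to 43.4% ± 1.71, and SPRY4 fell from 13.5% ± 0.16 to 1.28% ± 0.158. The 4 Sprouty genes together gave 78.1% of the sum in DMSO, 73.9% in tretinoin, 33.9% in vemurafenib and 33.8% in the combination. Without division by exon length these shares were 65.6%, 61.2%, 20% and 20.2%.

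The order of levels changed with it. In vemurafenib SPRED1 led at 5.03 FPKM, followed by SPRY2 at 3.36 and SPRED2 at 2.38. SPRED3 at 0.259, SPRY1 at 0.239, SPRY3 at 0.187 and SPRY4 at 0.148 FPKM came last. SPRY2 and SPRED2 overlapped between libraries, as did each neighbouring pair among the last 4, so their order is not settled by these data. By FPKM, SPRY4 had moved from the second place in DMSO to this lowest group. In the combination SPRED1 again led, at 4.92 FPKM, and SPRY4 was again lowest by mean, at 0.178 FPKM, with a range that overlapped that of SPRY3.

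**Figure D4:**
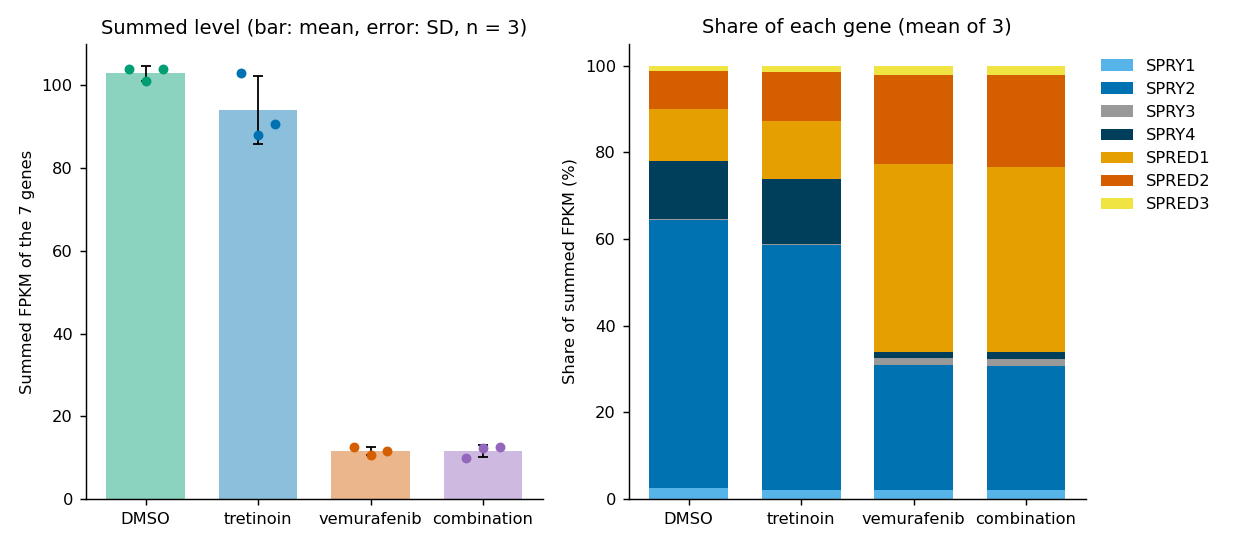
Left, summed FPKM of the 7 genes in each group; bars are means, error bars SD and points the 3 libraries. Right, mean share of each gene in that sum, in percent. The sum was 103 FPKM in DMSO and 11.6 in vemurafenib, and the leading share passed from SPRY2, 62% in DMSO, to SPRED1, 43.4% in vemurafenib.

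The other genes of the pathway place the family among its neighbours. The gene lists were chosen with earlier results of these data known, so their counts are a description and not a test. In vemurafenib against DMSO, 12 of 12 listed ERK-driven transcripts were called lower, where 26.3% of all tested genes were called lower. Their median log2 fold change was −2.95, against −2.0 for the 7 Sprouty and SPRED genes and 0.019 for all tested genes. ETV5, an ETS transcription factor, fell by 4.67 on the log2 scale, CCND1 (cyclin D1) by 4.39 and MYC by 3.69. Of 9 other feedback inhibitors 8 were called lower, with a median of −2.74. DUSP6, a phosphatase that removes the activating phosphates of ERK, had 127, 116 and 122 CPM in DMSO and 1.4, 1.92 and 2.1 CPM in vemurafenib. Its log2 fold change, −6.07, was the one nearest to that of SPRY4 in these lists. DUSP5, another ERK phosphatase, fell by 3.10 and SH2B3, an adaptor that restrains receptor signalling, by 2.89. The exception was IL17RD, a membrane inhibitor also called SEF, at 0.29 (95% interval −0.19 to 0.77).

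Transcripts of the proteins that Sprouty and SPRED act on or with were called in both directions, and the counts of called genes in these lists stand against 26.3% lower and 26.4% higher over all tested genes in the same comparison. Of 11 receptor adaptors 3 were called lower and 4 higher in vemurafenib, near those shares. SHC1 fell by 0.45, GRB2 by 0.44 and PTPN11 (SHP2) by 0.34, while GAB1 rose by 1.29, the ubiquitin ligase gene CBLB by 1.04 and the RAS exchange factor gene SOS1 by 0.85 on the log2 scale. Among 8 RAS GTPase-activating proteins and brakes, RASA2 was called lower, at −0.51, and RASAL1 and RASA1 higher, at 0.97 and 0.21, shares no higher than those of all tested genes.

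NF1, which encodes the GTPase-activating protein that SPRED proteins recruit, had 48, 54.9 and 60.5 CPM in DMSO and 47.1, 48.4 and 47 CPM in vemurafenib. The ranges overlapped, and the log2 fold change was −0.20 (95% interval −0.43 to 0.03; edgeR adjusted p = 0.133). In the combination NF1 had 42.6, 43.3 and 46.4 CPM, all below DMSO, with a log2 fold change of −0.31 (edgeR adjusted p = 0.0243). The difference between the combination and vemurafenib was −0.11 and was not called.

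In the core cascade 2 of 12 genes were called in each direction in vemurafenib, near the 26.3% lower and 26.4% higher of all tested genes. MAP2K1 (MEK1) was lower at −0.54 and HRAS at −0.53, and MAPK3 (ERK1) was higher at 0.46 and BRAF at 0.25. Of 8 partners and modifiers of Sprouty and SPRED, 2 were called in each direction, also near the shares of all tested genes: SIAH2, a ubiquitin ligase gene, was lower at −0.78 and the phosphatase subunit gene PPP2CA at −0.52. The kinase genes MKNK1 and TESK1 were higher, at 0.45 and 0.42. Of 8 other genes with an EVH1 domain, 3 were called lower, VASP at −0.84, HOMER1 at −0.54 and HOMER2 at −0.29, and 0 higher, where edgeR gave 3 of the 8 an unadjusted p below 0.05.

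Upstream, 12 receptors and ligands could be tested, of which 4 were called lower and 5 higher in vemurafenib, against 26.3% and 26.4% of all tested genes. The ligand gene FGF1 rose by 2.26, PDGFRB by 1.68 and ERBB3 by 1.28, whereas FGF2 fell by 0.84, EGFR by 0.83 and MET by 0.67 on the log2 scale. The median of this list was 0.44, against −2.0 for the Sprouty and SPRED genes.

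**Figure D5:**
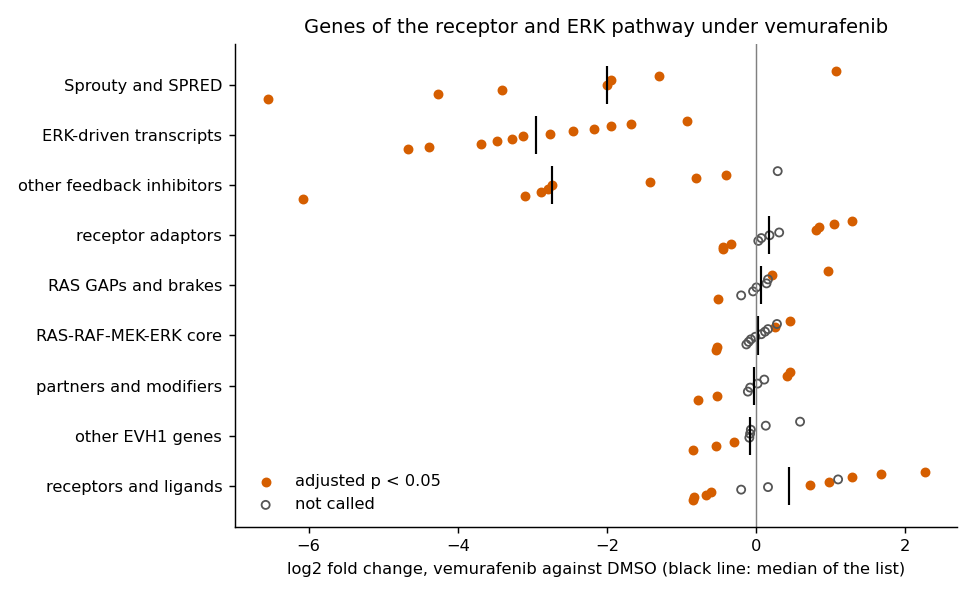
Log2 fold change in vemurafenib against DMSO for the Sprouty and SPRED genes and 8 lists of genes of the same pathway; filled points were called by edgeR, open points were not, and black lines are medians. The feedback inhibitors and ERK-driven transcripts lie mostly below −1, with medians from −2.95 to −2.0, and the other lists have medians from −0.08 to 0.44.

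With tretinoin alone, 2 of 12 ERK-driven transcripts were called lower and 2 higher. Of 9 other feedback inhibitors 2 were called lower and 1 higher. Over all tested genes 2.20% were called lower and 3.48% higher in the same comparison. Among the ERK-driven transcripts EGR1 and PHLDA1 rose, by 0.68 and 0.45, and CCND1 and IER3 fell, by 0.44 and 0.30. Among the other feedback inhibitors SH2B3 rose by 0.37, and ERRFI1 and DUSP4 fell by 0.34 and 0.28 on the log2 scale. In the 6 lists of adaptors, brakes, core genes, partners, EVH1 genes and receptors, edgeR called 0 genes with tretinoin, while 4, 1, 3, 1, 2 and 5 genes, in that order, had an unadjusted p below 0.05. The share of all tested genes below that unadjusted p is not given here. Between the combination and vemurafenib 2.20% of all tested genes were called lower and 2.27% higher. Of the 12 ERK-driven transcripts 3 were called higher, EPHA2, PHLDA1 and MYC, by 0.84, 0.52 and 0.44, and 0 lower. Of the 9 other feedback inhibitors 0 were called by edgeR, with 1 at an unadjusted p below 0.05. Lower in the combination were 3 of 12 receptors and ligands, FGFR3, PDGFRB and ERBB2, by 0.78, 0.35 and 0.28. So were 2 of 8 EVH1 genes, HOMER3 and VASP, by 0.35 and 0.29. Of 8 RAS GTPase-activating proteins and brakes 1 was lower, DAB2IP, by 0.38 on the log2 scale. In the lists of adaptors, core genes and partners 0 genes were called.

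Over the 12 libraries the members other than SPRY3 varied together, with Pearson correlations of log2 CPM from 0.956 to 0.996 between pairs, and SPRY3 had correlations from −0.847 to −0.755 with them. All of these pairs share the step between libraries with and without vemurafenib, and the 12 points are not independent of it. The genes most like SPRY4 were ETV4, FOSL1 and ETV5, with r of 0.999, 0.999 and 0.998. Those most like SPRY2 were UCK2, ETV4 and IER3, with r of 0.999, 0.998 and 0.996, and those most like SPRY1 were NLE1, PPIF and DUSP4, with r of 0.996, 0.994 and 0.994. SPRED1 was most like UBE2N, C15orf39 and SLC35G2, SPRED2 most like GRAMD1B, WNK4 and POLR1B, and SPRED3 most like MPV17L, SRSF6 and TMEM120B, all with r of at least 0.988. A high r was common for the 6 genes that fell, with 519 to 1070 genes at 0.95 or more. SPRY3 had 4 such genes, led by C8orf48 at 0.981 and MDH1B at 0.962.

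Markers of other cell types were low but moved with the drugs. Summed keratinocyte markers, 3 genes of which 2 passed the filter and KRT1 was listed at 0 throughout, ranged from 12.3 to 16.2 CPM in DMSO, from 9.16 to 14.8 in tretinoin, from 29.1 to 32 in vemurafenib and from 26.6 to 35.3 in the combination. Against DMSO, KRT14 was called higher with vemurafenib and with the combination, by 1.24 and 1.32 on the log2 scale. KRT5, at 0.32 and −0.44, was not called in either. Summed fibroblast markers, 3 of 4 passing, ranged from 4.25 to 6.23 CPM in DMSO, 4.3 to 4.77 in tretinoin, 12.8 to 14.9 in vemurafenib and 9.57 to 10.1 in the combination. Summed endothelial markers, 3 of 3 passing, ranged from 5.28 to 6.55 CPM in DMSO, 12.7 to 17.2 in tretinoin, 2.4 to 3.17 in vemurafenib and 5.34 to 6.2 in the combination. These sums hide opposite changes, since under vemurafenib CDH5 fell by 4.96 and VWF rose by 2.13 on the log2 scale (edgeR adjusted p = 2.02e-09 and 0.00132). Summed leukocyte markers, 1 of 3 passing, ranged from 0.838 to 2.36 CPM in DMSO, 2.14 to 4.4 in tretinoin, 2.44 to 3.55 in vemurafenib and 3.44 to 4.73 in the combination. The marker that passed, PTPRC, was called higher than in DMSO in all 3 treatments, by 1.46, 1.36 and 1.77 on the log2 scale (edgeR adjusted p = 0.0121, 0.00161 and 9.51e-05). The part of these and of the melanocytic markers in the Sprouty and SPRED results was not tested.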

How the data were processed

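RNA was measured in 12 libraries of A375 cells, 3 per treatment, made with a directional poly(A) kit. The authors deposited raw counts per gene for each sample. Per the labels and the study's methods, reads were aligned to GRCh38.p10 with STAR 2.5.3a and counted on GENCODE 27 genes with strand ignored; the counts were not normalized. Groups and replicate numbers came from the labels. Genes passing filterByExpr by group (16740 of 58347) were TMM-scaled and fitted over all 12 samples with 1 term per group by edgeR 4.0.16 (glmQLFit, glmQLFTest; R 4.3.3), with Benjamini-Hochberg adjustment within each comparison. Exon lengths for FPKM came from GENCODE 29, in which 58084 entries were matched. No pairing by replicate number was visible: the correlations of deviations of the 18 same-numbered pairs ranged from -0.143 to 0.0872, and none exceeded 0.1. A weak pairing could be missed by this check. Alternatives were DESeq2 1.42.0, other scalings and filters, a replicate block, only the groups compared, leaving out single libraries and, added after seeing the data, leaving out the repeated pseudoautosomal entries. The code was tested on simulated data. The members and gene lists were chosen with earlier results of these data known. All 7 members were named; from each list the text names up to 3 called genes with the largest rise and up to 3 with the largest fall, genes needed beside the family (NF1, BRAF), overlapping genes, and the 3 genes most correlated with each member, of which 1 is not reported here. IL17RD, the 1 list member not called, was named after its values were seen.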

Additional observations from a re-analysis of the deposited data

Results flagged for a closer look

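One gene of the pathway lists, and none of the 7 Sprouty and SPRED genes, responded differently to tretinoin with and without vemurafenib by the interaction term of the edgeR fit. EPHA2, an ephrin receptor tyrosine kinase gene counted among the ERK-driven transcripts, had 451, 559 and 559 CPM in DMSO and 525, 512 and 513 CPM with tretinoin, a log2 fold change of −0.02. With vemurafenib it had 56.4, 62.4 and 60.4 CPM, and with the combination 99, 114 and 109 CPM, a log2 fold change of 0.84. The difference between these effects was 0.86 ± 0.12 on the log2 scale (SE; edgeR adjusted p = 0.00238).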

How the results depend on the processing

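Against DMSO, the 6 falls and the rise of SPRY3 under vemurafenib and under the combination kept their direction and call in every alternative that tested them; a filter of at least 10 counts in every sample dropped SPRY3, so 0 members were higher in the 3 comparisons with it. Tretinoin against DMSO gave 1 lower member with DESeq2, with no filter on low counts and without tretinoin replicate 1 (0 to 1 over left-out libraries). The combination against tretinoin gave 0 higher members with the replicate block and 0 to 1 over left-out libraries. The block changed no other member's call. No pairing by replicate number was visible (mean correlation -0.0312 over 18 pairs), though a weak one could have been missed.

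Over all tested genes, tretinoin against DMSO called 635 lower with DESeq2, 174 with total counts alone, 804 with no filter, 219 with the replicate block, 78 (and 235 higher) in a fit of only the groups compared, and 106 to 656 lower and 273 to 711 higher over left-out libraries, against 368 lower and 583 higher in the main fit. Total counts alone gave 2628 lower genes with vemurafenib and 2916 with the combination, against 4400 and 4440, and moved the median of all genes by 0.214 and 0.187 on the log2 scale. A fit of only the groups compared called 685 lower and 583 higher between the combination and vemurafenib, against 369 and 380, and left-out libraries 203 to 271 lower. The interaction called 71 lower and 64 higher, and 150 and 126 with DESeq2, 132 and 36 with total counts alone, 221 and 389 with no filter, 36 and 39 with the block, and 27 to 144 and 31 to 121 over left-out libraries. The causes of these shifts were not tested.

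Shares of the family from counts not divided by exon length were 42.9%, 37.7%, 14.8% and 14.6% for SPRY2 in DMSO, tretinoin, vemurafenib and the combination. They were 22.7%, 24.3%, 60.1% and 59.3% for SPRED1, 14.1%, 16.4%, 23.7% and 24.4% for the other 4 genes together, and 20.3%, 21.6% and 1.69% for SPRY4 in DMSO, tretinoin and the combination.

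Signs changed only where the main value was near 0. Between the combination and vemurafenib, SPRY2 was 0.01 with no filter and SPRY3 -0.01 with total counts alone. Over left-out libraries that comparison ranged from -0.11 to 0.23 for SPRY1, -0.15 to 0.13 for SPRY2, -0.12 to 0.15 for SPRY3, -0.08 to 0.03 for SPRED1, -0.07 to 0.22 for SPRED2 and -0.34 to 0.04 for SPRED3. Tretinoin against DMSO ranged from -0.13 to 0.12 for SPRY4 and from -0.04 to 0.08 for SPRED1, and the interaction from -0.11 to 0.01 for SPRED1 and from -0.27 to 0.02 for SPRED2. Depth limits SPRY3 in all groups, and SPRY1, SPRY4 and SPRED3 under vemurafenib, where each library held at most 39 counts.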
